A study of Mus musculus with 18 samples.

Results

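The genes described here are 10 components of MHC class I antigen presentation, taken by symbol from a table of normalized counts: the heavy chain genes H2-K1 and H2-D1, the light chain gene B2m, the peptide transporter genes Tap1 and Tap2 with the tapasin gene Tapbp, the immunoproteasome genes Psmb8, Psmb9 and Psmb10, and the transactivator gene Nlrc5. They were chosen by name and function, and all 10 were found among the 37236 genes of the table. All 10 also passed the filter on low values (10 normalized counts or more when averaged across the 18 libraries), which kept 11992 genes for testing.

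T cells were taken from subcutaneous B16-OVA melanomas, a mouse melanoma line made to carry the model antigen ovalbumin, on day 14 after injection of 500000 tumor cells into C57BL/6 mice. The hosts were wild-type (Nr2f6+/+) or lacked the orphan nuclear receptor gene Nr2f6 in the whole body (Nr2f6-/-), so every host cell type carried the deletion while the tumor line did not. Either an antibody against the checkpoint ligand PD-L1 (aPDL1) or its control IgG2b was given at 0.5 mg per dose from day 3. The 4 groups were Nr2f6+/+ with IgG2b (n = 3), Nr2f6-/- with IgG2b (n = 3), Nr2f6+/+ with aPDL1 (n = 6) and Nr2f6-/- with aPDL1 (n = 6). The CD4+ and CD8+ cells enriched on beads were pooled and sorted for CD3, so a value averages both lineages. Nothing in the labels says whether each library came from 1 mouse, and the p-values measure only the spread between libraries. In such bulk samples, fewer cells of a type and less RNA per cell cannot be told apart.

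MHC class I molecules are carried by nearly all nucleated cells, T cells included, and show CD8+ T cells a sample of the peptides made inside the cell. Proteins are cut by the proteasome, whose catalytic subunits are exchanged for Psmb8, Psmb9 and Psmb10 under interferon-gamma to form the immunoproteasome. The Tap1-Tap2 transporter moves the peptides into the endoplasmic reticulum, where tapasin helps to load them onto a heavy chain paired with beta-2-microglobulin. Nlrc5 is a transactivator that acts at the promoters of many of these genes.

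Between 12473391 and 18609482 reads per library were assigned to genes. Nr2f6 had 0 reads in all 9 Nr2f6-/- libraries and 20.2 to 200.8 normalized counts in the 9 Nr2f6+/+ libraries. By the number each label carries, the libraries form a first set, 28 to 39, with replicates 1 to 3 of every group, and a second set, 43 to 48, with replicates 4 to 6 of both aPDL1 groups only. Libraries 38 and 39 (Nr2f6+/+ aPDL1, replicates 2 and 3) stood apart from the rest of the first set. Over 100 genes picked for the largest difference between the sets in the Nr2f6-/- aPDL1 group, none of them a listed gene, the mean log2 deviation toward the second set was 0.43 in library 38 and 0.40 in library 39. It was between 0.24 and 0.58 in libraries 46 to 48 of the same group, -0.35 in library 37, and between -0.40 and -0.02 in the 6 IgG2b libraries. The genotype differences of the 10 genes under aPDL1, and their antibody differences in Nr2f6+/+ cells, are therefore given with these libraries and again without them.

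Of the 10 genes, 7 lie on mouse chromosome 17, B2m on chromosome 2, and Psmb10 and Nlrc5 on chromosome 8 (GRCm38, GENCODE). Tap1 (chr17:34187553-34197225, plus strand) and Psmb9 (chr17:34181987-34187764, minus strand) are divergent neighbors whose annotated starts overlap by 212 bases. The library kit reads the 3′ ends of mRNAs, and of the 451 windows of 50 bases in the last 500 bases of each main transcript, none was found in a transcript of another gene for B2m, Tap1, Tap2, Tapbp, Psmb8, Psmb9, Psmb10 or Nlrc5. For H2-K1, 0.443% of the windows recurred in H2-D1, and for H2-D1, 9.53% recurred in transcripts of other genes, Adsl, Kcnk4 and Nmrk1 among them. Class I heavy chain genes are near-identical elsewhere along their length, so a division of some reads among them is uncertain. B2m lies within the span of the oppositely transcribed Patl2, and other members overlap antisense genes. On the same strand, Tapbp overlaps the protein-coding gene Zbtb22 by 3422 bases, and Nlrc5 overlaps the microRNA gene Mir7072 by 60 bases. Whether counting used the strand is not given in the sources used here.

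The promoters of the light chain and of 1 heavy chain gene are shown because B2m carried the most regular genotype difference, and H2-K1 makes the chain it pairs with. The sequences are the 150 bases before the annotated start (RefSeq, GRCm38.p6), with matches to the motifs searched in capitals. B2m is at chr2:122147537-122147686 on the plus strand and H2-K1 at chr17:34000348-34000497 on the minus strand, both written 5′ to 3′ in the direction of the gene.
B2m: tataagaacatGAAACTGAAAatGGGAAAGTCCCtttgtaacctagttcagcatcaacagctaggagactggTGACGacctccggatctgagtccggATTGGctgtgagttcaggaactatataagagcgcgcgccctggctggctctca
H2-K1: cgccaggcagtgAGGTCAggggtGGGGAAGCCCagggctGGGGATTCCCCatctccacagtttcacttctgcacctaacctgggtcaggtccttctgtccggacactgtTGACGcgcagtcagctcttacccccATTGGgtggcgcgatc

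In the B2m promoter, the capitals are, in order, an interferon-stimulated response element core (GAAA repeated after a gap of any 2 bases, starting 139 bases upstream), an NF-kB type site (GGG and CC around any 5 bases, 127 bases upstream, matched on both strands by overlapping letters), a half-site of the X2 box (TGACG, 78 bases upstream) and a Y box (CCAAT, read on the other strand, 53 bases upstream). The H2-K1 capitals mark a nuclear receptor half-site (AGGTCA, 138 bases upstream), overlapping NF-kB type matches from 127 bases upstream, TGACG at 41 and the Y box at 16 bases upstream. Among 32851 mouse promoter windows of 250 bases before to 50 bases after the start, the response element core was found in 3.44%, TTCNNNGAA (a gamma-activated site) in 8.3%, AGGTCA in 16.3%, TGACG in 20.8%, CCAAT in 37.4% and the NF-kB type site in 50.8%, both strands counted. A match is a match of letters only, and a site that departs from these patterns stays in lower case, so lower case does not show that an element is absent. AGGTCA was also found before the starts of H2-D1 (198 bases upstream) and Psmb10 (42 bases upstream, on the other strand). TTCNNNGAA was found before the start of Psmb8 (97 bases upstream). Matches to the other motifs outside B2m and H2-K1 are not listed here. Windows were held for 8 of the 10 genes, and Tap2 and Nlrc5 had no entry.

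The first question was whether loss of Nr2f6 changed class I antigen presentation genes in tumor-infiltrating T cells. B2m, Tap1, Tapbp and H2-K1 were 1.32 to 1.40-fold higher in Nr2f6-/- than in Nr2f6+/+ cells under IgG2b. For these genes the groups did not overlap (4 of 10 members, beside 6.1% of all genes). Under aPDL1, B2m, Tapbp and Psmb9 were 1.30 to 1.34-fold higher with overlap. Tap2 was 1.90-fold higher there, also with overlap, and its difference changed sign between the library sets. No member passed the test in either setting (0 of 10 with limma at an adjusted p under 0.05, also 0 with edgeR and with DESeq2). The share of all genes called was 0% under IgG2b and 0.175% under aPDL1, so calls were rare across the whole table. edgeR called 0% and 0.183% of all genes, and DESeq2 0.75% and 1.57%. At an unadjusted p under 0.05, 1 member (Tap1) stood under IgG2b, where 5.35% of all genes did, and 4 members (B2m, Tap2, Tapbp and Psmb9) under aPDL1, where 9.73% of all genes did. No member was lower without overlap in Nr2f6-/- cells under IgG2b (8.07% of all genes were), and under aPDL1 no member separated in either direction (0.392% of all genes were higher and 0.2% lower without overlap). All differences below are of log2(normalized count + 1), which is close to the log2 fold change at these levels.

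**Figure D1:**
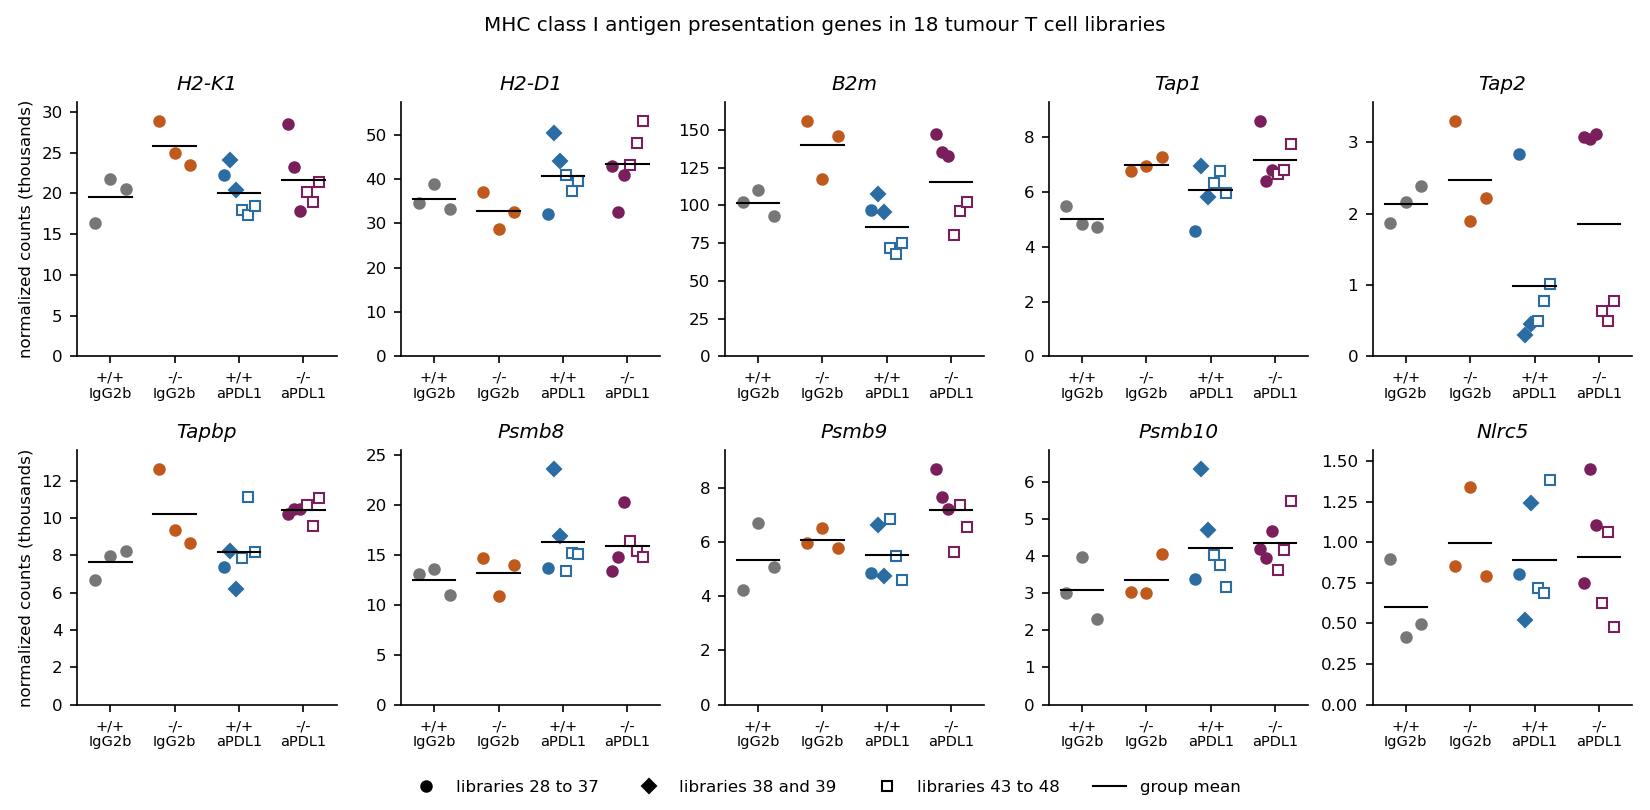
Normalized counts (y axis from 0, tick labels in kilo-counts) of the 10 genes in each of the 18 libraries, by genotype and antibody on the x axis. Filled circles are libraries 28 to 37, diamonds libraries 38 and 39, open squares libraries 43 to 48, and lines the group means. B2m is higher in Nr2f6-/- than in Nr2f6+/+ libraries of the same antibody and set, and Tap2 is at 305 to 1016 normalized counts in the diamonds and squares against 1869 to 3298 in the circles.

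B2m encodes beta-2-microglobulin, the invariant light chain of every classical class I molecule. Its normalized counts under IgG2b were 102137, 110018 and 92985 in the Nr2f6+/+ libraries and 155903, 117386 and 146094 in the Nr2f6-/- libraries. Every Nr2f6-/- library was above every Nr2f6+/+ library, and the difference was 0.45 (95% interval -0.02 to 0.93, adjusted p = 0.920 by limma). Under aPDL1, the Nr2f6+/+ libraries ran from 68144 over a median of 85210 to 107852, and the Nr2f6-/- libraries from 80308 over 117221 to 147341. These ranges overlapped, and both genotypes were lower in the second library set than in the first. Within the first set, the Nr2f6+/+ libraries held 95416 to 107852 and the Nr2f6-/- libraries 132466 to 147341. Within the second set, the values were 68144 to 75003 and 80308 to 101976. The genotypes were thus apart, with Nr2f6-/- higher, in each of the 3 sets of libraries that can be compared (IgG2b, aPDL1 first set, aPDL1 second set), by 0.45, 0.47 and 0.37 on the log2 scale. Separation in all 3 held for 18 of the 11992 genes tested in the higher direction (0.15%) and, among the members, for B2m only (1 of 10). It held in the lower direction for 0.0667% of all genes and 0 members. The difference under aPDL1 was 0.42 (0.08 to 0.75, adjusted p = 0.377 by limma).

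H2-K1 encodes the heavy chain of H-2K, which presents peptides to CD8+ T cells. The IgG2b libraries held 16395, 21733 and 20598 normalized counts in Nr2f6+/+ and 28884, 24958 and 23454 in Nr2f6-/- cells. No Nr2f6-/- library reached down into the Nr2f6+/+ range, and the difference was 0.40 (-0.00 to 0.80, adjusted p = 0.920 by limma). Under aPDL1 the lowest, median and highest values were 17374, 19406 and 24066 in Nr2f6+/+ and 17817, 20806 and 28550 in Nr2f6-/- cells, which overlapped over most of their range (difference 0.10, -0.18 to 0.39). By set, the genotypes overlapped in the first (0.04) and were apart in the second, where Nr2f6+/+ libraries held 17374 to 18422 and Nr2f6-/- libraries 18924 to 21396 (0.17).

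H2-D1, the heavy chain gene of H-2D, was at 34529, 38806 and 33186 in Nr2f6+/+ and 37115, 28817 and 32553 in Nr2f6-/- libraries under IgG2b. The lowest, median and highest values under aPDL1 were 32210, 40210 and 50345 in Nr2f6+/+ and 32468, 43007 and 53082 in Nr2f6-/- cells. The genotypes overlapped under both antibodies, with differences of -0.12 (-0.53 to 0.29) and 0.09 (-0.20 to 0.38). The sets differed in sign under aPDL1. The first set overlapped with a difference of -0.11, and in the second set every Nr2f6-/- library (43069 to 53082) was above every Nr2f6+/+ library (37278 to 40822), a difference of 0.29.

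Tap1, which encodes 1 chain of the peptide transporter, was at 5494, 4819 and 4735 normalized counts in Nr2f6+/+ and 6742, 6954 and 7283 in Nr2f6-/- libraries under IgG2b. The groups did not overlap, and the difference of 0.48 (0.08 to 0.88) had an unadjusted p of 0.0191 and an adjusted p of 0.873 by limma. Under aPDL1 the Nr2f6+/+ libraries ran from 4587 over 6139 to 6926 and the Nr2f6-/- libraries from 6390 over 6785 to 8580, so the upper Nr2f6+/+ libraries lay within the Nr2f6-/- range (difference 0.25, -0.04 to 0.53, adjusted p = 0.592). The genotypes overlapped in each set (0.34 in the first and 0.15 in the second).

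Tapbp, the tapasin gene, was at 6673, 7939 and 8240 in Nr2f6+/+ and 12613, 9337 and 8635 in Nr2f6-/- libraries under IgG2b. These did not overlap, although 1 Nr2f6-/- library (replicate 1) was well above the other two. Under aPDL1 the Nr2f6-/- libraries were close together, from 9554 over 10490 to 11086, while the Nr2f6+/+ libraries ran from 6200 over 8004 to 11113. Only 1 Nr2f6+/+ library, replicate 5, reached into the Nr2f6-/- range. The differences were 0.41 (-0.01 to 0.82, adjusted p = 0.920) under IgG2b and 0.37 (0.08 to 0.67, adjusted p = 0.363) under aPDL1, where the genotypes were apart in the first set (0.52) and overlapped in the second (0.22).

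Tap2, the other transporter chain, varied most within the aPDL1 groups, with an SD on the log2 scale of 1.13 in Nr2f6+/+ and 1.27 in Nr2f6-/- cells against 0.18 and 0.41 under IgG2b. Under IgG2b it was at 1869, 2166 and 2391 in Nr2f6+/+ and 3298, 1898 and 2218 in Nr2f6-/- libraries, with overlap (difference 0.17, -1.12 to 1.47). Under aPDL1 the Nr2f6+/+ libraries held 2843 in replicate 1, 305 in replicate 2, 459 in replicate 3, and 491, 772 and 1016 in replicates 4 to 6. The Nr2f6-/- libraries held 3080, 3043 and 3113 in replicates 1 to 3 and 638, 502 and 780 in replicates 4 to 6. Low values were thus found in the second set and in libraries 38 and 39, in both genotypes, and nowhere else. The genotype difference under aPDL1 was 0.93 (0.01 to 1.84, adjusted p = 0.507 by limma) over all libraries, 2.06 in the first set alone and -0.21 in the second set alone. Without libraries 38 and 39 it was 0.44. Of the first set, that leaves only library 37 in Nr2f6+/+ against libraries 31 to 33 in Nr2f6-/- cells, so the sets weigh unequally. What set these libraries apart was not tested.

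**Figure D2:**
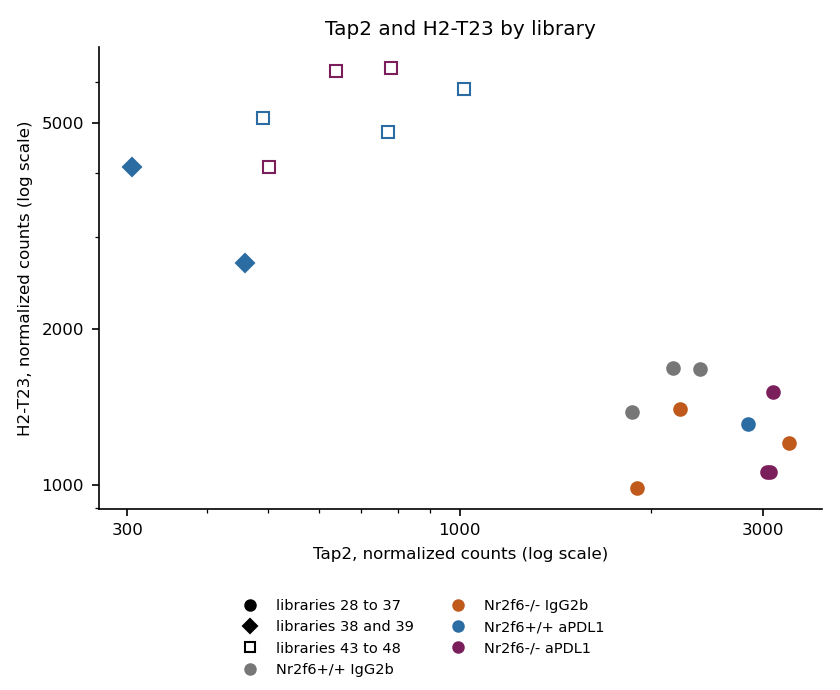
Normalized counts of Tap2 (x axis, log scale) against those of the class I-like gene H2-T23 (y axis, log scale) in the 18 libraries, colored by group. Libraries 38 and 39 (diamonds) and 43 to 48 (open squares) have Tap2 at 305 to 1016 and H2-T23 at 2681 to 6373, and libraries 28 to 37 (circles) have Tap2 at 1869 to 3298 and H2-T23 at 987 to 1679.

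The immunoproteasome genes differed from each other. Psmb9, the beta1i subunit gene, was at 4245, 6700 and 5093 in Nr2f6+/+ and 5987, 6528 and 5781 in Nr2f6-/- libraries under IgG2b, which overlapped (difference 0.21, -0.23 to 0.66). Under aPDL1 it ran from 4611 over 5179 to 6877 in Nr2f6+/+ and from 5651 over 7298 to 8706 in Nr2f6-/- cells, a difference of 0.38 (0.07 to 0.70, adjusted p = 0.386 by limma). The genotypes were apart in the first set under aPDL1 (4770 to 6635 against 7223 to 8706) and overlapped in the second (4611 to 6877 against 5651 to 7373).

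Psmb8, the beta5i subunit gene, was at 13042, 13568 and 10942 in Nr2f6+/+ and 14642, 10849 and 13946 in Nr2f6-/- libraries under IgG2b, and from 13346 over 15141 to 23588 and from 13411 over 15093 to 20330 under aPDL1. The genotypes covered nearly the same range under both antibodies (differences 0.06, -0.36 to 0.49, and -0.03, -0.33 to 0.28). Psmb10, the beta2i subunit gene, was at 2998, 3971 and 2308 in Nr2f6+/+ and 3038, 3000 and 4044 in Nr2f6-/- libraries under IgG2b, and from 3163 over 3889 to 6338 and from 3610 over 4182 to 5468 under aPDL1. Its differences were 0.14 (-0.37 to 0.66) and 0.07 (-0.30 to 0.43), again with overlap. Under aPDL1 both genes had opposite signs in the sets, -0.15 and 0.10 for Psmb8 and -0.13 and 0.26 for Psmb10, with overlap in each.

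Nlrc5, the transactivator gene, varied widely between libraries of 1 group, with an SD of 0.41 to 0.59 on the log2 scale in the 4 groups. Its values were 896, 414 and 494 in Nr2f6+/+ and 852, 1343 and 794 in Nr2f6-/- libraries under IgG2b. Under aPDL1 they ran from 524 over 761 to 1386 and from 478 over 905 to 1452. The groups overlapped under both antibodies, and the intervals were wide (0.77, -0.10 to 1.64, and 0.01, -0.60 to 0.63). The aPDL1 sets again differed in sign, at 0.40 and -0.37.

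**Figure D3:**
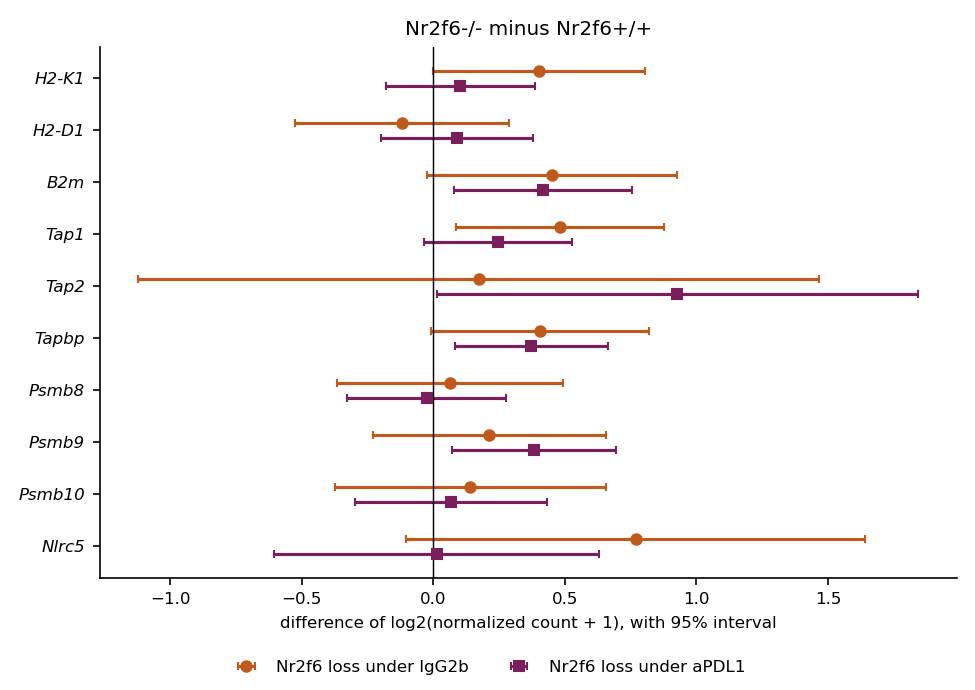
Difference of log2(normalized count + 1) between Nr2f6-/- and Nr2f6+/+ cells (x axis) for each gene (y axis), under IgG2b (circles) and aPDL1 (squares), with 95% intervals from the limma fit over 18 libraries. In both settings 9 of 10 estimates lie above 0, and the interval excludes 0 for Tap1 under IgG2b and for B2m, Tap2, Tapbp and Psmb9 under aPDL1, none after adjustment over all genes.

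Over the 10 genes, the median genotype difference was 0.31 under IgG2b and 0.17 under aPDL1, with 9 of 10 above 0 each time, beside a median over all genes tested of -0.06 and -0.005. The means of H2-K1, B2m, Tap1, Tapbp and Psmb9 were higher in Nr2f6-/- cells in each of the 3 sets of libraries that can be compared (5 of 10 members, beside 13.3% of all genes), and those of 0 members were lower in all 3 (15.4% of all genes). Without libraries 38 and 39, the median under aPDL1 was 0.28 and no member passed the test. The genotype difference under aPDL1 was then 0.55 for B2m, 0.18 for H2-K1, 0.20 for H2-D1, 0.29 for both Tap1 and Tapbp, 0.44 for Tap2, 0.40 for Psmb9, 0.13 for Psmb8, 0.27 for Psmb10 and -0.02 for Nlrc5. The intervals of B2m (0.18 to 0.91) and Psmb9 (0.06 to 0.74) lay above 0, and those of Tapbp (-0.02 to 0.60) and Tap2 (-0.56 to 1.45) no longer did. That fit sets libraries 37 and 46 to 48 in Nr2f6+/+ against 31 to 33 and 43 to 45 in Nr2f6-/- cells. The second set thus weighs more in Nr2f6+/+ cells, and set and genotype are partly mixed. For B2m, 0.55 was above the difference within the whole first set (0.47) and within the second (0.37). The mean of both genotype differences, a comparison added after the data were seen, was 0.43 for B2m (0.14 to 0.73, adjusted p = 0.309), 0.36 for Tap1 (0.12 to 0.61, adjusted p = 0.309) and 0.39 for Tapbp (0.14 to 0.64, adjusted p = 0.281), all by limma. It was called for 0 of 10 members and for 0.05% of all genes, and 5 members (H2-K1, B2m, Tap1, Tapbp and Psmb9) had an unadjusted p under 0.05, as had 8.48% of all genes. With the library set as a term in the fit, the adjusted p of B2m was 0.0852. DESeq2 called B2m (0.44, adjusted p = 0.0390) and Tap1 (0.36, adjusted p = 0.0436) in this comparison, where it called 1.54% of all genes, and edgeR called no member and 0.0334% of all genes.

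Markers of the sorted cells and of other cells also differed on average between the genotypes. The 11 T cell markers summed to 58710 to 65490 normalized counts in Nr2f6+/+ and 69257 to 75283 in Nr2f6-/- libraries under IgG2b, and to 62671 to 88925 and 84169 to 98695 under aPDL1. None of the 11 was at 0 in a whole group, and 10 of 11 were higher on average in Nr2f6-/- cells (median difference over both antibodies 0.39, 0 called by limma, 6 at an unadjusted p under 0.05). The 14 macrophage markers, 13 of which were lower on average in Nr2f6-/- cells (0 called by limma, 3 at an unadjusted p under 0.05), summed to 16369 to 20855 in Nr2f6+/+ and 9860 to 13368 in Nr2f6-/- libraries under IgG2b, and to 1677 to 6815 and 929 to 2626 under aPDL1. The 7 melanocyte markers, 6 of which passed the filter and were lower on average in Nr2f6-/- cells (0 called, 4 at an unadjusted p under 0.05), summed to 2495 to 4665 and 1156 to 2336 under IgG2b and to 2026 to 7149 and 736 to 4371 under aPDL1, with Tyr at 0 in the whole Nr2f6-/- aPDL1 group. Over both antibodies, limma called 0.05% of all genes, and 8.48% of all genes had an unadjusted p under 0.05. The part of these cell types in the class I values was not tested.

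The wider pathway was described by 4 lists with 73 genes, 62 of which passed the filter: other class I heavy chains and class I-like genes (13 of 24 tested), folding, trimming and editing factors of the endoplasmic reticulum (12 of 12), proteasome core and activator subunits (19 of 19) and class I regulators (18 of 18). With limma, 0 of the 62 were called for either genotype comparison, beside 0% (IgG2b) and 0.175% (aPDL1) of all genes. At an unadjusted p under 0.05 there were 5 (IgG2b, 5.35% of all genes) and 11 (aPDL1, 9.73% of all genes). edgeR also called 0. DESeq2 called 0 of the 62 under IgG2b and 2 of the 62 under aPDL1, where it called 1.57% of all genes, among them the class I-like gene H2-Q7 (0.53, adjusted p = 0.0452). The median difference of the class I-like list was 0.11 under IgG2b and 0.21 under aPDL1. It was -0.02 in both for the endoplasmic reticulum list, 0.11 and -0.16 for the proteasome list, and 0.14 and 0.13 for the regulators.

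Irf1, an interferon-induced activator of class I genes, and Ifng, the gene of interferon-gamma itself, had mean genotype differences over both antibodies of 0.41 (0.10 to 0.71, adjusted p = 0.400) and 0.45 (0.10 to 0.81, adjusted p = 0.435) by limma.

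The second question was what PD-L1 blockade did to these genes in each genotype. The members did not share a direction. H2-D1, Tap1, Tapbp, Psmb8, Psmb9 and Psmb10 were higher on average with aPDL1 in both genotypes, and B2m and Tap2 were lower. H2-K1 and Nlrc5 differed in sign between the genotypes. No member passed the test (0 of 10 with limma, edgeR and DESeq2 in either genotype), and in neither genotype did a member separate without overlap, as 1.32% of all genes did upward and 3.22% downward in Nr2f6+/+ and 1.97% and 3.15% in Nr2f6-/- cells. limma called 0.242% of all genes in Nr2f6+/+ and 0.325% in Nr2f6-/- cells, edgeR 0.158% and 0.3%, and DESeq2 0.801% and 1.96%. At an unadjusted p under 0.05 there was 1 member in Nr2f6+/+ (Tap2, 7.24% of all genes) and 1 in Nr2f6-/- cells (H2-D1, 9.7% of all genes).

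H2-D1 was 0.19 higher (-0.17 to 0.54) with aPDL1 in Nr2f6+/+ and 0.40 higher (0.04 to 0.75, adjusted p = 0.439 by limma) in Nr2f6-/- cells. In the first set alone, its mean in Nr2f6-/- cells was 32828 under IgG2b and 38800 under aPDL1, and in the second set it was 48129. Psmb10 was 0.45 (-0.00 to 0.89) and 0.37 (-0.08 to 0.82) higher, and Psmb8 0.36 (-0.01 to 0.73) and 0.27 (-0.10 to 0.64). Without libraries 38 and 39, which held the 2 highest Nr2f6+/+ aPDL1 values of each of these genes, the Nr2f6+/+ differences were 0.08 for H2-D1 (-0.29 to 0.44), 0.24 for Psmb10 (-0.19 to 0.67) and 0.20 for Psmb8 (-0.15 to 0.55). In the first set without them, where library 37 is the only Nr2f6+/+ aPDL1 library, H2-D1 was at -0.14. For each of these genes, at least 1 aPDL1 library lay within the IgG2b range of its genotype.

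The B2m difference with aPDL1 was -0.26 (-0.67 to 0.15) in Nr2f6+/+, or -0.39 (-0.83 to 0.04) without libraries 38 and 39, and -0.30 (-0.71 to 0.12) in Nr2f6-/- cells. Within the first set, which holds the only IgG2b libraries, its means were 101713 and 100069 in Nr2f6+/+ and 139794 and 138388 in Nr2f6-/- cells, so the lower values came with the second set. Tap2 was lower by 1.54 on the log2 scale in Nr2f6+/+ cells (-2.66 to -0.42, adjusted p = 0.453; -1.06, -2.24 to 0.13, without libraries 38 and 39) and by 0.79 in Nr2f6-/- cells (-1.91 to 0.33). In the first set without libraries 38 and 39, the Tap2 differences were 0.42 and 0.36, the former resting on 1 Nr2f6+/+ aPDL1 library that is assumed to vary like the other groups. With no IgG2b library in the second set, the antibody and the set cannot be told apart for these libraries.

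**Figure D4:**
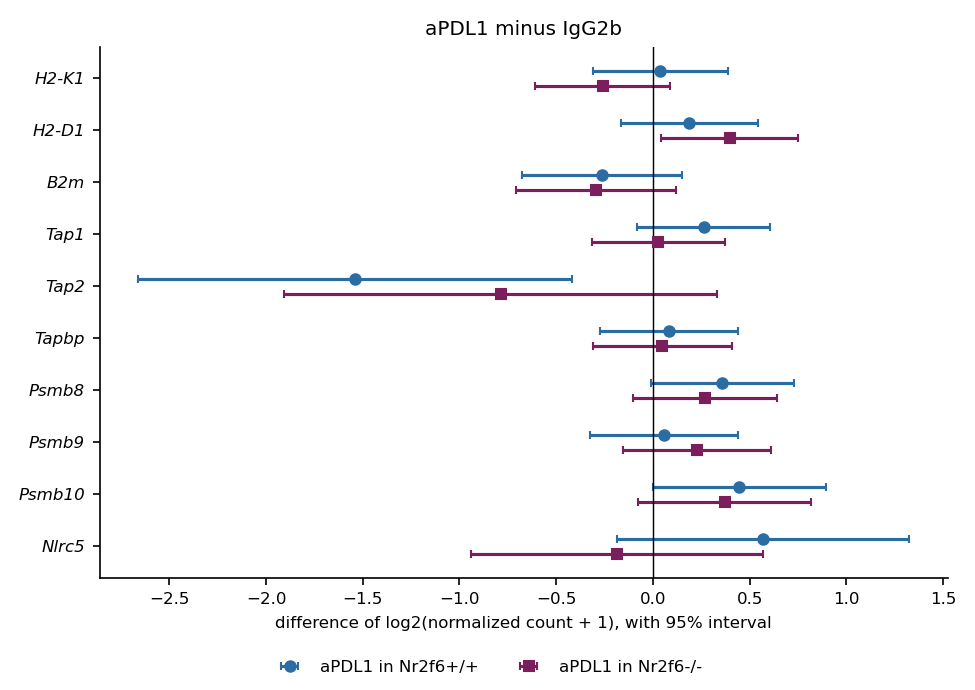
Difference of log2(normalized count + 1) between aPDL1 and IgG2b (x axis) for each gene (y axis) in Nr2f6+/+ (circles) and Nr2f6-/- cells (squares), with 95% intervals from the limma fit. The Tap2 estimates, -1.54 and -0.79, have the widest intervals, and those of Psmb8 and Psmb10 lie between 0.27 and 0.45.

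Tap1 (0.26 and 0.03), Tapbp (0.08 and 0.05), Psmb9 (0.06 and 0.23), H2-K1 (0.04 and -0.26) and Nlrc5 (0.57 and -0.19) had intervals that included 0 in both genotypes. Without libraries 38 and 39 their Nr2f6+/+ differences were 0.22, 0.17, 0.04, -0.04 and 0.60 in the same order, with intervals that included 0. The median over the members was 0.13 in Nr2f6+/+ and 0.04 in Nr2f6-/- cells, beside -0.10 and -0.04 over all genes. Of the 62 pathway genes, limma and edgeR called 0 in either genotype, and so did DESeq2. By limma, 7 in Nr2f6+/+ and 10 in Nr2f6-/- cells had an unadjusted p under 0.05, beside 7.24% and 9.7% of all genes.

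MHC class II genes, which present peptides to CD4+ T cells and in the mouse mark professional antigen-presenting cells, were lower with aPDL1. Their summed level was 9097 to 17117 (Nr2f6+/+) and 15497 to 20124 (Nr2f6-/-) under IgG2b, and 1720 to 7117 and 2647 to 5839 under aPDL1. limma called 3 of 6 as lower in Nr2f6+/+ (H2-Aa -2.10, H2-Ab1 -2.14 and H2-Eb1 -1.62) and 4 of 6 in Nr2f6-/- cells (H2-Aa -2.09, H2-Ab1 -2.32, H2-Eb1 -2.63 and Cd74 -2.14), each at an adjusted p of 0.0482 or less. Lyz2, the lysozyme gene of macrophages and other myeloid cells, fell by 2.83 in Nr2f6+/+ and by 2.87 on the log2 scale in Nr2f6-/- cells, and C1qb, a complement gene of macrophages, fell by 3.27 in Nr2f6-/- cells. All 14 macrophage markers were lower on average with aPDL1 in both genotypes (1 and 2 called by limma, which called 0.242% and 0.325% of all genes). Ppbp, a platelet gene, also fell in Nr2f6+/+ cells. The part of these cell types' RNA in the class I values was not tested.

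The combination was compared with wild-type cells under the control antibody, that is, Nr2f6-/- aPDL1 against Nr2f6+/+ IgG2b. Tap1 and Tapbp were higher in all 6 Nr2f6-/- aPDL1 libraries than in all 3 Nr2f6+/+ IgG2b libraries (2 of 10 members, beside 2.17% of all genes), and 0 members were lower without overlap (4% of all genes). The differences were 0.51 for Tap1 (0.16 to 0.85, adjusted p = 0.206 by limma) and 0.46 for Tapbp (0.10 to 0.81, adjusted p = 0.331). Psmb9 (0.44, 0.06 to 0.83) and Psmb10 (0.51, 0.07 to 0.96) had intervals above 0 but overlapping libraries. No member was called by limma (0 of 10, with 4 at an unadjusted p under 0.05, as 9.04% of all genes were) or edgeR, where 0.617% and 0.342% of all genes were. DESeq2 called Tap1 (0.51, adjusted p = 0.0425) among 1.51% of all genes. The median over members was 0.39, beside -0.12 over all genes.

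In the same comparison Ifng was 0.91 higher (0.40 to 1.41, adjusted p = 0.0927 by limma, 0.0161 by DESeq2, which called no other of the 62 pathway genes). H2-Ab1, H2-Eb1, Lyz2, C1qb, Adgre1, Mrc1, Apoe, Ppbp, Pf4 and Nr2f6 fell, all called by limma. This comparison shares its libraries with the 4 above and is no independent check of them.

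Whether the antibody acted differently in the genotypes was tested by the interaction. limma and edgeR called 0 of 10 members and 0% of all genes, with 0 members and 4.97% of all genes at an unadjusted p under 0.05, and DESeq2 called 0 of 10 members and 0.648% of all genes. The estimates were between -0.76 (Nlrc5, -1.83 to 0.31) and 0.75 (Tap2, -0.83 to 2.34). For B2m the interaction was -0.03 (-0.62 to 0.55) and for Tapbp -0.03 (-0.54 to 0.47), intervals that leave room for differences as large as the genotype differences themselves.

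Each immunoproteasome gene was also compared with its constitutive counterpart by their log2 ratio within a library: Psmb8 to Psmb5, Psmb9 to Psmb6 and Psmb10 to Psmb7. These are ratios of mRNA counts, and the exchange of subunits in the proteasome itself was not measured. The Psmb9 to Psmb6 ratio was higher in Nr2f6-/- (0.68 ± 0.51, SD, n = 6) than in Nr2f6+/+ cells (0.10 ± 0.25, SD, n = 6) under aPDL1, with an unadjusted p of 0.0433 (exact permutation test, two-sided) that was 0.519 after adjustment over the 12 comparisons. The 3 highest ratios, 0.91 to 1.28, were all in the first set, and the second set ran from 0.06 to 0.51 in Nr2f6-/- and from -0.03 to 0.38 in Nr2f6+/+ cells. The other 11 comparisons had adjusted p-values of 0.81 to 0.90 (exact permutation tests). With 3 libraries against 3, such a test cannot go below 0.10.

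The Psmb8 to Psmb5 ratio was widest under IgG2b in Nr2f6-/- cells, at 8.15 in replicate 1, where Psmb5 was at 50.4 normalized counts, and no higher than 4.99 in the other two, where it was at 438 and 447. The difference from Nr2f6+/+ cells was 1.31, and 0.19 without that replicate. For Psmb10 to Psmb7, Nr2f6+/+ cells averaged 1.37 ± 0.24 (SD) over 3 libraries under IgG2b and 1.53 ± 0.56 over 6 under aPDL1. The Nr2f6-/- cells averaged 1.43 ± 0.72 and 1.78 ± 0.19, with overlap throughout.

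**Figure D5:**
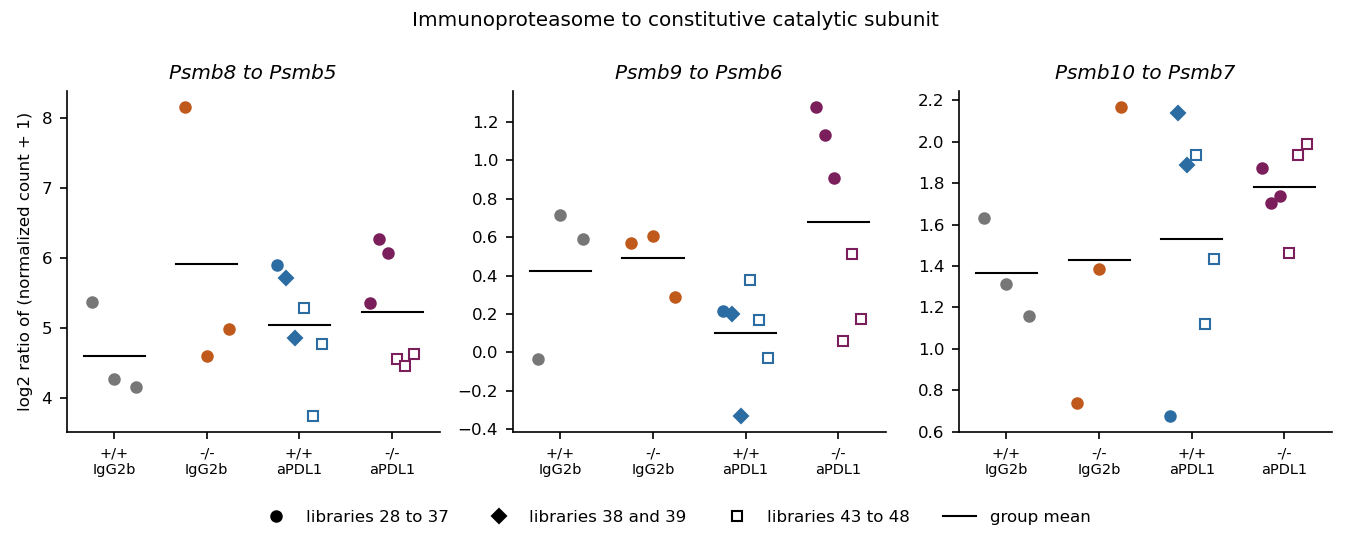
Log2 ratio of each immunoproteasome gene to its constitutive counterpart (y axis, each panel with its own range) in the 18 libraries by group (x axis), with symbols by library number and lines at group means. In the Psmb9 to Psmb6 panel, the first-set Nr2f6-/- aPDL1 libraries lie at 0.91 to 1.28 and the second-set ones at 0.06 to 0.51.

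Whether the members varied together from library to library was examined on their deviations from the group means. Of the 45 pairs, 31 had a Pearson correlation above 0 (median 0.08), and 0 passed a permutation test adjusted over the 45 pairs. On deviations from the group means alone, the highest were Psmb8 with Psmb10 (r = 0.64, adjusted p = 0.215, Spearman rho = 0.55, permutation, n = 18; 0.43 without the 2 libraries farthest out in Psmb8), H2-D1 with Psmb10 (r = 0.63, adjusted p = 0.208, rho = 0.56; 0.57) and H2-K1 with B2m (r = 0.61, adjusted p = 0.215, rho = 0.57; 0.49). On deviations within group and library set, these were 0.58, 0.71 and 0.38, the median over the 45 pairs was 0.15, and the order changed. H2-D1 with Tap1 was then at 0.69 and H2-D1 with B2m at 0.67, the latter from 0.003 before. There, 0 pairs passed the adjusted permutation test (lowest adjusted p = 0.244 for Pearson r and 0.221 for Spearman rho, n = 18). The lowest was H2-D1 with Tap2 (r = -0.68, adjusted p = 0.208, rho = -0.62; -0.70), and -0.54 within sets.

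None of the 50 relations of the members to measures outside the list, among them Irf1, Ifng, the class II mean and the macrophage mean, passed the permutation test adjusted over the 50 either, with adjusted p-values of at least 0.947 (median r -0.03). B2m followed the mean of the other 9 members most closely (r = 0.63 over 18 libraries), and Nlrc5 ran against it (r = -0.46). By the rule fixed for naming genes of like pattern, the 5 of 11982 other genes whose deviations were most like the members' mean were Mettl23 (r = 0.84), Med27 (0.84), Cenpl (0.82), Trim35 (0.81) and Tnfrsf14 (0.81, and listed at 0 in at least 1 library), given as a description over 18 libraries that share their sets.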

How the data were processed

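RNA of CD3+ T cells sorted from B16-OVA tumors was sequenced from the 3′ end in 18 libraries of 4 groups. The authors trimmed reads with cutadapt and Trimmomatic, dropped reads under 22 bases, aligned them to mm10 (STAR, with Bowtie2 for what stayed unmapped), retained 1 primary position for reads with several, counted with HTSeq and divided by DESeq2 size factors. The deposited values are therefore a signal, normalized counts per gene; the annotation and versions are not given in the sources used here. All 18 columns were used. Each value came out as a whole number of reads times a step (100% of values within 0.001 reads), so reads were recovered for the count tests.

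Values were tested as log2(normalized count + 1) with limma 3.58.1 (R 4.3.3; 1 model of 4 group means, moderated with a mean trend), for genes with a mean of at least 10, with Benjamini-Hochberg adjustment over 11992 genes and a threshold of 0.05. edgeR 4.0.16 and DESeq2 1.42.0 on the recovered reads, other pseudocounts, filters and scalings, library sets, a replicate block and leaving out each library were alternatives. The fit was tested on simulated data first. Intervals are 95%; 3 reads correspond to 2.46 to 3.64 normalized counts, and such floors cover counting error only.

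Named genes were the members, Nr2f6, listed genes called by limma, the constitutive subunits, Irf1 and Ifng, and the 5 most alike genes (1 further gene of this rule is not reported here); H2-T23, H2-Q7 and Tyr, and Psme1 in the closing section, were named after their values were seen. The members and lists were chosen with earlier results of these data known. Markers of dendritic, B, NK, platelet and stromal cells were summed too. Replicate numbers were checked for pairing over 21 pairs of libraries with the same number: their deviations correlated between -0.03 and 0.04, so they share only a number. No 2 libraries were identical.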

Additional observations from a re-analysis of the deposited data

How the results depend on the processing

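limma and edgeR called 0 of the 10 members in each comparison under the alternatives run, including each library left out. DESeq2 called 1 in the combination (Tap1) and 2 in the mean genotype comparison (B2m and Tap1), the 3 values of 2230 that passed the threshold under an alternative. Of these 2230 single-member values, 110 changed sign, 62 moved by more than 1 standard error and 0 reversed a call. The mean genotype comparison and the fits without libraries 38 and 39 were chosen after seeing the data. Separation without overlap and the counts of genes by sets of libraries were not among the tests laid down, and are descriptions only. Counts over all genes moved more. For Nr2f6 loss under IgG2b (0 called) a pseudocount of 10 gave 1, no filter 14 and DESeq2 88. Under aPDL1 (21) no filter gave 9, the first set 34, the second set 0, only the groups compared 4, DESeq2 184, leaving out libraries 38 and 39 gave 32, and the first set without them 2. For aPDL1 in Nr2f6+/+ cells (29) a pseudocount of 10 gave 60, a filter of 50 gave 19, the set as covariate 12, only the groups compared 15, edgeR 19, DESeq2 94 and the first set without libraries 38 and 39 gave 15. In Nr2f6-/- cells (39) no filter gave 17, the first set 8, only the groups compared 19 and DESeq2 230. The combination (74) gave 116 with a pseudocount of 10, 41 with edgeR, 177 with DESeq2 and 122 in the first set without libraries 38 and 39. The interaction (0) gave 5 with no filter and 76 with DESeq2. The mean genotype comparison (6) gave 13 with a pseudocount of 10, 16 with no filter, 12 with quantile normalization, 18 in the first set, 21 with the set as covariate, 181 with DESeq2 and 16 without libraries 38 and 39. With each library left out in turn, the counts ran from 0 to 1, 9 to 27, 6 to 31, 13 to 45, 10 to 92, 0 to 0 and 2 to 12 in this order of comparisons, and 0 members were called. The replicate numbers did not pair the libraries; a fit with the replicate block gave 0, 31, 12, 27, 79, 0 and 7 genes and changed no member's call. The causes were not tested. Depth was similar between libraries, and the number of libraries and the second set without IgG2b limit these comparisons.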

Other observations

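Psme1, which encodes a subunit of the PA28 proteasome activator and was singled out after its values were seen, was at 4850, 5524 and 3813 normalized counts in Nr2f6+/+ and 7760, 6662 and 7080 in Nr2f6-/- libraries under IgG2b, with no overlap. Under aPDL1 it ran from 3650 to 6357 in Nr2f6+/+ and from 5759 to 7695 in Nr2f6-/- libraries, with overlap. The mean difference over both antibodies was 0.55 (95% interval 0.27 to 0.82, adjusted p = 0.137 by limma, and 0.00679 by DESeq2, the only call among the 62 pathway genes in that comparison).

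H2-T23, which encodes the peptide-binding chain of Qa-1 and was also named after its values were seen, was at 987 to 1679 normalized counts in libraries 28 to 37 and at 2681 to 6373 in libraries 38, 39 and 43 to 48. Of the windows of 50 bases in the last 500 bases of its transcript, 38.1% were also found in transcripts of other genes, against 0% for Tap2, which ran the opposite way in the same libraries. The cause was not tested.

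Among the remaining marker lists, the summed level of 3 platelet genes was 2300 to 2611 normalized counts in Nr2f6+/+ IgG2b libraries, 268 to 703 in Nr2f6-/- IgG2b libraries and at most 294 under aPDL1. Pf4 made up most of the first range, at 2142 to 2269, and Itga2b, another of the 3, was at 0 in every IgG2b library. Dendritic cell markers summed to 789 to 1062 and 877 to 1101 under IgG2b and to 301 to 1386 and 25.2 to 1126 under aPDL1, in Nr2f6+/+ and Nr2f6-/- cells. B cell markers summed to between 901 and 4160, NK cell markers to between 492.8 and 1884 and stromal and endothelial markers to between 102 and 609 over all groups, with Cd79a at 0 in each of the 4 groups.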
